A study of Nothobranchius furzeri with 20 samples.

Results

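In livers of male turquoise killifish given rotenone, 289 genes were set apart at 1% of the LC50. Each was higher in all 10 libraries at 1% than in any of the 10 libraries at 0.1% and 10%. Medians at the ages sampled at 1% lay less than 1 apart on the log2 scale. These genes were chosen from the 26739 genes of the count tables by these values themselves. They make up 1.75% of the 16516 genes with enough counts to be tested. A gene was taken if its lowest log2 level at 1% exceeded its highest level at the other doses and if the mean over the 10 libraries at 1% lay at least 1 above the mean of the others. In addition, the medians of the groups at 27 and 9 weeks had to lie less than 1 apart, and the largest group median had to reach 1 CPM. CPM are a gene's counts scaled by the library's total over the 16516 genes tested and by a TMM factor. That factor corrects for differences in composition between libraries, and log2 levels are log2(CPM + 0.5). Because the contrast of 1% with the other doses chose the genes, it is described below and was not tested.

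The libraries came from 4 groups of 5: 27-week fish at 1% of the LC50, and 9-week fish at 1%, 10% and 0.1%, all males of strain MZM-04/10p treated with rotenone. The LC50 is the concentration at which the median animal dies. No 27-week fish at another dose and no untreated fish entered the comparisons, so the 27-week group at 1% was set against 9-week fish, and age and dose are not balanced. The labels leave unsaid whether the 5 libraries of a group stem from 5 fish. What a p-value is judged against is thus the scatter of libraries, which may be technical.

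Rotenone blocks complex I, the enzyme through which NADH passes electrons into the mitochondrial respiratory chain. The liver, rich in mitochondria, carries out much of the body's intermediary metabolism and breaks down foreign compounds. Turquoise killifish are short-lived annual fish in which complex I and its inhibition by rotenone have been studied in relation to lifespan. The design addresses how liver transcripts differ with the dose of rotenone in young fish and with age at a shared dose.

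The files identify genes only by numbers of the form Nfu_g_1 and do not pair them with names, and 0 of the identifiers were found in RefSeq's gene table for NfurGRZ-RIMD1. No function or chromosome is therefore given for any gene, no pathway or cell type list could be examined, and the liver label could not be checked against marker genes. Libraries held between 23546777 and 33870946 counts, and depth overlapped between the groups. Replicate 5 at 9 weeks and 1% stood apart by its TMM factor, the lowest of all at 0.652, where the others lay between 0.805 and 1.37. Without it the rule gave 328 genes, of which 258 were among the 289. The 0.1% libraries were deposited in a table of their own, so a difference between the tables and one between 0.1% and the other doses cannot be told apart, while both 1% groups and the 10% group share a table. In bulk tissue, fewer cells of a type and less RNA per cell cannot be told apart.

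The genes high at 1% held about the same share of raw counts, without TMM factors, at both ages, whose medians the rule held close. They held 1.12%, 1.35%, 1.49%, 1.47% and 1.64% of counts in replicates 1 to 5 at 27 weeks and 1%. In the 9-week 1% group they held 1.42%, 1.44%, 1.22%, 2.15% and 1.22%. At 10% the values were 0.409%, 0.418%, 0.476%, 0.411% and 0.577%, and at 0.1% they were 0.438%, 0.442%, 0.441%, 0.661% and 0.441%. All libraries at 1% thus lay above all libraries at the other doses. The groups at 27 and 9 weeks overlapped, as did the groups at 10% and 0.1%. The rule required this separation by dose for each gene and kept the age medians close. Both the separation and the similar shares at the ages therefore largely follow from the choice of genes. With TMM factors the ages were less alike. The median CPM over the members averaged 17.4 in the 27-week 1% libraries and 22.4 in the 9-week 1% libraries. The mean share was 1.41% ± 0.19 in the 27-week 1% group, 1.49% ± 0.38 in the 9-week 1% group, 0.458% ± 0.072 in the 10% group and 0.485% ± 0.099 in the 0.1% group (SD over 5 libraries). The widest 95% Wilson interval of any of these 20 shares spanned 0.0113 percentage points, which covers counting error only.

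**Figure D1:**
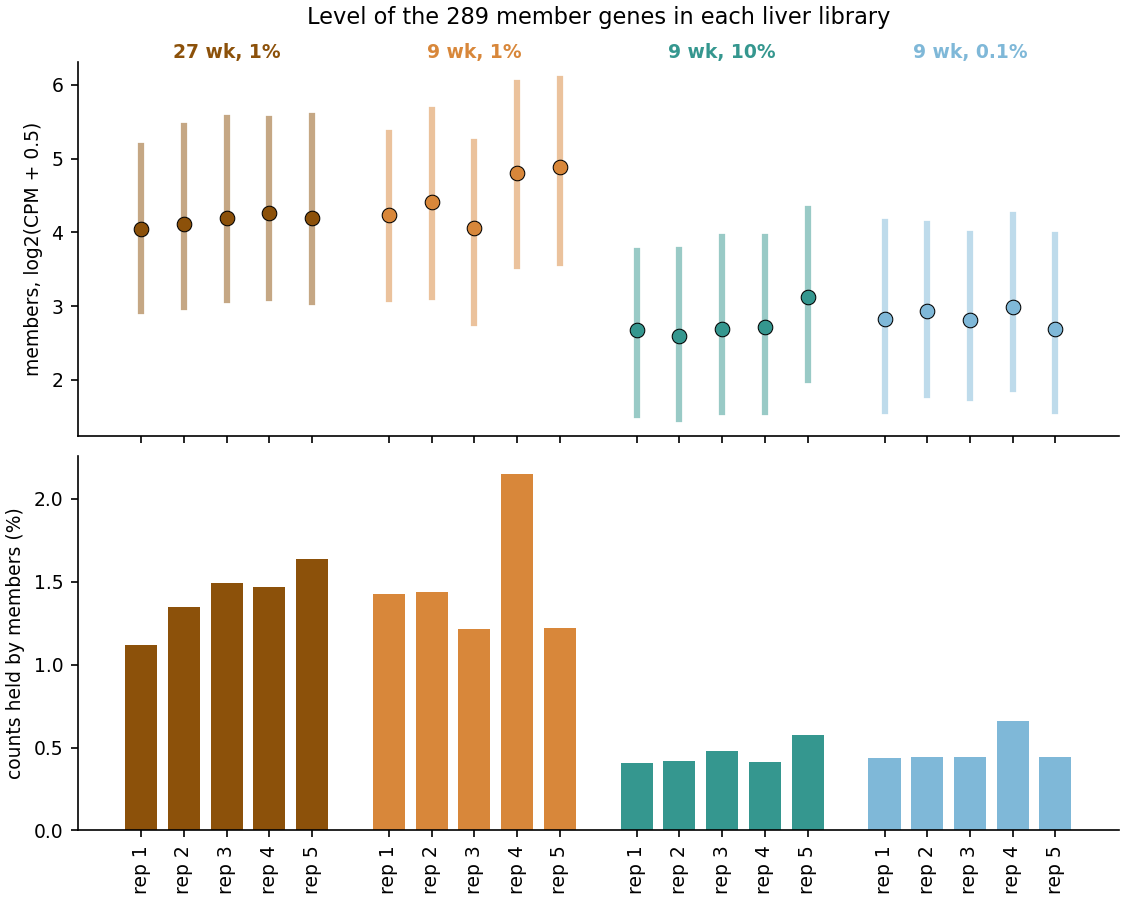
The upper panel plots the median (point) and the interquartile range (bar) of log2(CPM + 0.5) over the 289 genes in each library; the lower panel plots the percent of all counts that they held. Medians span 4.05 to 4.26 in the 27-week 1% group and 4.07 to 4.89 in the 9-week 1% group, against 2.59 to 3.12 at 10% and 2.69 to 2.99 at 0.1%.

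Levels differed widely between genes of the set. Mean levels at 1% ranged from 1.22 to 1754 CPM, with a median of 20.1 CPM. At the other doses they ranged from 0.286 to 871 CPM, with a median of 6.85 CPM. Every one of the 289 genes had a count in all 20 libraries, so none was switched fully off at any dose at this depth. The lowest count of a member in a library at 1% was 10, and the median count was 530.5 in libraries at 1% and 178 in the others. Only 29 genes averaged under 1 CPM at 0.1% and 10%; their means at 1% ran from 1.22 to 24.6 CPM.

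Members were spread over all levels of expression. With genes grouped by their mean at 1%, 8 members stood under 3 CPM, 78 from 3 to under 10, 96 from 10 to under 30, 75 from 30 to under 100 and 32 at 100 CPM or more. These were 0.253%, 1.87%, 2.38%, 3.53% and 3.36% of the genes tested in each class whose largest group median reached 1 CPM. The 32 most abundant held 54.3% of the summed CPM of the set at 1%, and the 10 most abundant held 33.5%. Gene length, recovered from the deposited tables for all 289, had a median of 2651 bases in the set and 2785 bases over the genes tested, with quartiles of 1332 and 3913 against 1396.5 and 4832.5 bases. Per kilobase of length, the set had a median of 9.20 RPKM at 1% (CPM divided by the length in kilobases). Over the genes tested in the same libraries it was 2.91 RPKM, with an upper quartile of 8.41 RPKM. Members were chosen for higher levels in these libraries than at the other doses, so their higher median is in part fixed by the rule. Every member also reached a group median of 1 CPM, as did 14438 of the 16516 genes tested. The median length of those 14438 genes was 2869 bases. For the members, the median of the mean levels was 20.1 CPM at 1% but 6.85 CPM at the other doses.

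Differences between 1% and the other doses were mostly between 2-fold and 4-fold. The log2 difference of means had a median of 1.38, with quartiles of 1.17 and 1.72, and reached 1.5 in 116 genes, 2 in 39 and 3 in 8. Over all genes tested, the median of the same difference was -0.04. By group, the median member lay 1.33 above 10% and 1.21 above 0.1% at 27 weeks, and 1.58 above 10% and 1.46 above 0.1% at 9 weeks. The rule fixes the sign of these values.

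**Figure D2:**
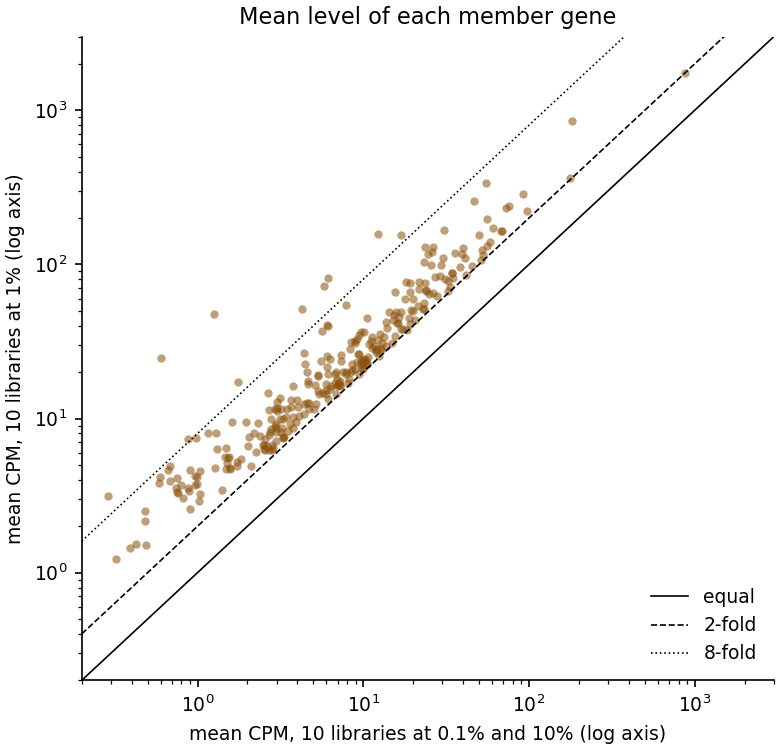
Each point is 1 of the 289 genes, with its mean CPM over the 10 libraries at 1% on the vertical axis and over the 10 libraries at 0.1% and 10% on the horizontal axis, both logarithmic. Most points lie between the lines for 2-fold and 8-fold, and a few lie above 8-fold.

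The gene with the largest difference, 4.74 on the log2 scale, also had the widest gap between 1% and the other doses. That gap was 2.3675, nearly matched by 2.3668 in another member. In the gene with the largest difference, the age medians lay 0.972 apart, higher at 27 weeks and near the limit of 1. This gene stood at 36.8, 64.2, 83.1, 64.3 and 57.8 CPM at 27 weeks and 1%, and at 34.6, 32.5, 19.6, 70.7 and 15.295 CPM at 9 weeks and 1%. At 10% it held 0.558, 0.673, 0.808, 1.34 and 0.483 CPM, and at 0.1% 2.56, 1.61, 0.432, 2.43 and 1.62 CPM. Its lowest library at 1% was the 9-week replicate 5, which still lay 2.37 above the highest of the others on the log2 scale.

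The most abundant member by CPM, in contrast, barely met the rule. It stood at 1691, 1547, 1244, 2186 and 1625 CPM at 27 weeks and 1% and at 1398, 2443, 1400, 2347 and 1663 CPM at 9 weeks and 1%. At 10% it had 835, 1084, 1188, 738 and 1085 CPM, and at 0.1% 733, 975, 952, 478 and 638 CPM. The log2 difference of means was 1.02, and the lowest library at 1%, replicate 3 at 27 weeks, lay 0.07 above replicate 3 at 10%.

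Genes lay close to each limit of the rule on both sides of it. The smallest log2 difference of means in the set was 1.003, and the nearest gene outside had 0.9998. The largest distance between the age medians was 0.986, where the nearest gene outside had 1.001. The narrowest gap between the lowest library at 1% and the highest of the others was 0.0053, and the nearest gene outside overlapped by -0.0014. The lowest group median that counted was 1.14 CPM, so that the minimum of 1 CPM removed 0 genes. Of 482 genes without overlap, 190 were left out for a difference of means under 1 and 3 for distant age medians, of which 2 were higher at 27 weeks.

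The gap between the 1% libraries and the others was narrow for most members. It had a median of 0.31 on the log2 scale, was 1 or more in 13 genes and under 0.1 in 46. Another 307 genes met every condition except the absence of overlap, and 176 of these missed it through a single library. That library could be replicate 5 at 9 weeks and 1% for 45 genes, replicate 3 of the same group for 40, and replicate 4 at 0.1% for 42. Membership near the limits therefore depended on single libraries.

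A few libraries set the limit for most of the set. Among the 10 libraries at 1%, replicate 3 at 9 weeks was the lowest for 94 of the 289 genes and replicate 1 at 27 weeks for 69, while replicate 4 of either age was the lowest for 1 gene each. Among the others, replicate 5 at 10% was the highest for 76 genes and replicate 4 at 0.1% for 74. The remaining 16 libraries limited between 1 and 46 genes each.

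The genes with the highest levels per length are given next; those after them followed closely, with 248 RPKM for the gene most abundant by CPM. Nfu_g_1_008461, with 3099 bases, had the highest mean of the set at 276 RPKM at 1%, against 58.5 RPKM at the other doses. Its CPM were 493, 684, 792, 806 and 710 at 27 weeks and 1%, and 583, 1067, 696, 1549 and 1172 at 9 weeks and 1%. At 10% they were 241, 98.1, 174, 156 and 191, and at 0.1% 71.6, 257, 246, 257 and 120. Every library at 1% held more of it than any other library, as the rule requires, and the age groups overlapped.

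Nfu_g_1_006417 followed with 251 RPKM at 1% against 18.8 RPKM at the other doses. It is short, with 327 bases, so its CPM were lower: 67.3, 83.6, 91.8, 92.5 and 96.1 at 27 weeks and 1%, and 65.1, 105, 48.5, 150 and 20.2 at 9 weeks and 1%. At 10% it stood at 6.18, 3.22, 4.22, 4.19 and 7.89 CPM, and at 0.1% at 3.67, 8.61, 10.8, 8.12 and 4.54 CPM. Its log2 difference of 3.57 was among the 8 above 3. The 27-week libraries lay close together, whereas the 9-week 1% libraries spread over most of the range, with replicate 5 lowest.

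**Figure D3:**
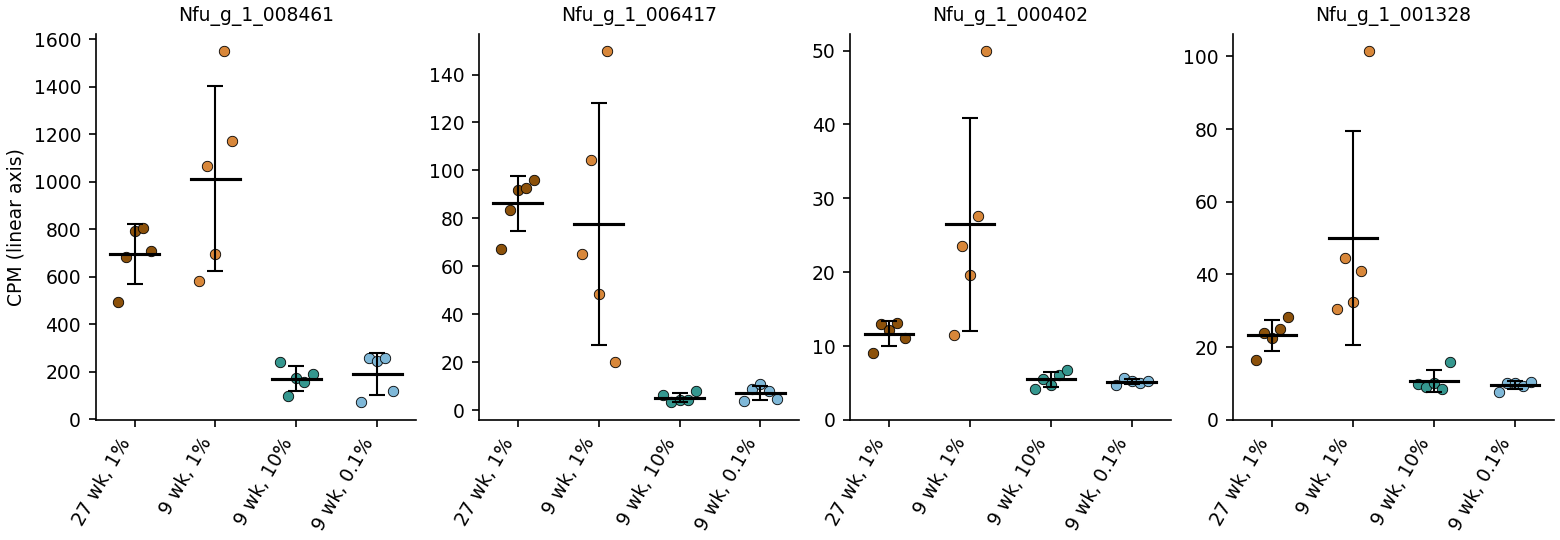
CPM of Nfu_g_1_008461, Nfu_g_1_006417, Nfu_g_1_000402 and Nfu_g_1_001328 in every library (points) with the mean and SD of each group (lines; n = 5 each) on linear axes. All points at 1% lie above all points at 10% and 0.1%, as the rule requires. In CPM the 9-week 1% group has the widest spread in each panel, but spread in CPM tends to grow with the level. For Nfu_g_1_008461 the libraries ran from 583 to 1549 CPM in that group and from 71.6 to 257 CPM at 0.1%.

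The comparison of 10% with 0.1% at 9 weeks was not used to choose the genes, although the rule caps both groups. By edgeR's quasi-likelihood test 0 of 289 members passed an adjusted p of 0.05, where 0.0484% of all 16516 genes tested passed and 0.0303% were lower at 10%. At an unadjusted p under 0.05 there were 16 members, 2 higher and 14 lower at 10%, or 5.54% of the set against 6.53% of all genes. Those lower at 10% were 4.84% of the set and 4.64% of all genes. limma voom called 0 members, against 0.0303% of all genes. DESeq2 called 2, or 0.692% of the set against 0.845% of all genes, of which 1 was lower at 10%, or 0.346% against 0.711%. The log2 change of 10% over 0.1% had a median of -0.11 over the members, with 202 of 289 below 0, and of -0.03 over all genes, with 53.7% below 0. Without replicate 5 at 10% the median over the members was -0.26 and without replicate 4 at 0.1% it was -0.08. A fitted log2 change smaller than 0.5 in either direction was found in 257 members, or 88.9%, and in 81.1% of all genes. The median standard error of the log2 change was 0.25 over the members and 0.32 over all genes. The rule dropped genes with a high library at 10% or 0.1%. These comparisons of members with all genes are thus not independent of it.

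For the genes named above, the highest dose and the lowest could not be separated. Nfu_g_1_008461 averaged 172 ± 52 CPM at 10% and 190 ± 88 CPM at 0.1% (SD over 5 libraries), which differed by -0.15 on the log2 scale with an SE of 0.33 (adjusted p = 1 by edgeR). Nfu_g_1_006417 averaged 5.14 ± 1.88 CPM at 10% and 7.15 ± 2.97 CPM at 0.1% (SD over 5 libraries), which differed by -0.47 with an SE of 0.40 (adjusted p = 0.992 by edgeR). These p-values do not show that the doses act alike.

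Between the ages at 1%, 3 of 289 members passed edgeR's test, all lower at 27 weeks, where 2.07% of all genes tested passed in either direction and 1.14% were lower. The rule kept out genes whose age medians lay 1 or more apart, so the count cannot be read as the number of age differences. The rule also required every library at 1% to lie above the other doses. The median SD of members was 0.48 at 9 weeks and 0.21 at 27 weeks (log2, both at 1%). A group with a wider spread needs a higher mean to meet that condition. The direction of the age changes is thus not independent of the rule, and how far the rule shaped it was not tested. At an unadjusted p under 0.05 there were 70 members, 68 of them lower at 27 weeks, or 24.2% of the set against 22.9% of all genes. Those lower at 27 weeks were 23.5% of the set and 13.8% of all genes. DESeq2 called 26 members, all lower, or 9.00% of the set against 8.92% of all genes in either direction and 5.29% lower; limma voom called 0, against 0.775% of all genes. The median log2 change of 27 over 9 weeks was -0.32 over the members, with 233 below 0, and -0.04 over all genes, with 52.7% below 0; with library totals in place of TMM factors and replicate 4 at 9 weeks and 1% left out, the plain difference of means turned to 0.06 over the members, which was still below the 0.21 over all genes. Dropping replicate 5 of that group gave the members a median of -0.18, and dropping its replicate 3 gave -0.42.

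The size of this age difference moved with the scaling, which moved all genes alike. As plain differences of mean log2 CPM, 228 members were lower at 27 weeks with TMM factors, with a median of -0.25. With library totals only, 173 were lower, with a median of -0.07, while the median of all genes was 0.17 with totals and 0.03 with TMM factors. With both totals and replicate 4 at 9 weeks and 1% left out, 165 members were higher at 27 weeks, with a median of 0.06, against 0.21 over all genes. The members' median was below that of all genes with TMM factors, RLE factors and totals, with all libraries and with each 9-week 1% library left out. The rule bears on these same libraries, so this difference from all genes is not independent of how the members were chosen.

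**Figure D4:**
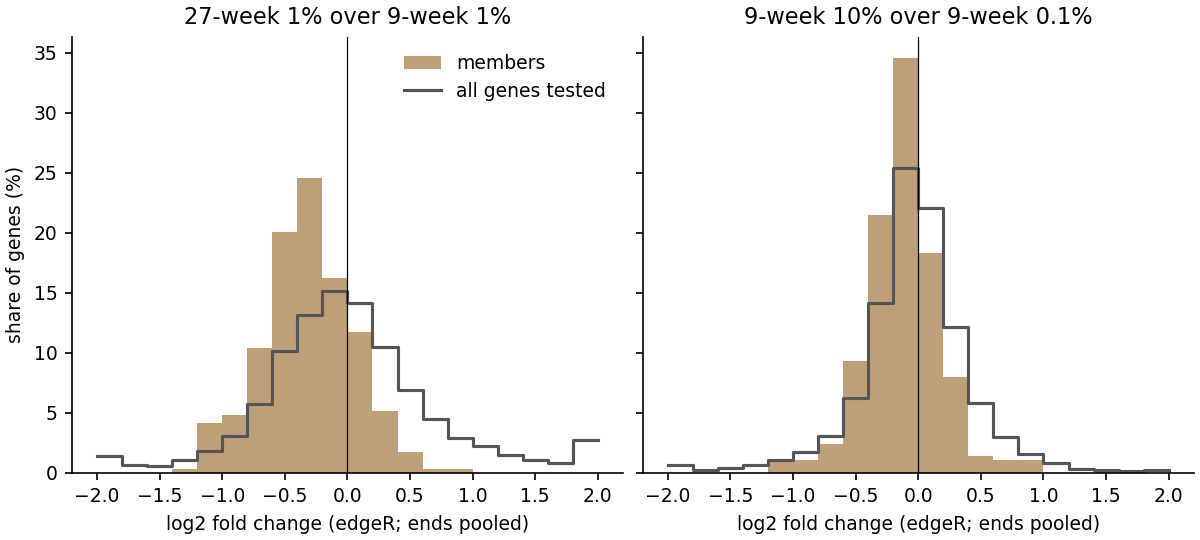
Percent of genes by log2 fold change in steps of 0.2, for the 289 members (filled) and all 16516 genes tested (line). Values beyond 2 are placed in the last step. The rule that chose the members bears on the libraries compared in both panels. The members centre at -0.32 for 27-week 1% over 9-week 1% (left) and at -0.11 for 9-week 10% over 9-week 0.1% (right), against -0.04 and -0.03 over all genes; with library totals and without replicate 4 at 9 weeks and 1%, the plain difference of means had a median of 0.06 over the members and 0.21 over all genes.

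Nfu_g_1_000402 had the largest called fall with age. It stood at 9.00, 13.0, 12.2, 13.1 and 11.1 CPM at 27 weeks and at 11.5, 23.6, 19.6, 27.6 and 50.0 CPM at 9 weeks, all at 1%, against 4.24 to 6.81 CPM at 10% and 4.75 to 5.62 CPM at 0.1%. The age groups overlapped through replicate 1 at 9 weeks. Its mean was 11.7 ± 1.7 CPM in 27-week fish against 26.5 ± 14.4 CPM in 9-week fish (SD over 5 libraries), which differed by -1.18 on the log2 scale with an SE of 0.27 (adjusted p = 0.0388 by edgeR). The call ended without any replicate at 27 weeks, without replicate 2, 4 or 5 at 9 weeks and 1%, and without replicate 2 or 4 at 10% (edgeR adjusted p 0.05 to 0.0912). It also ended with limma voom (adjusted p = 0.0683) and with only both age groups fitted (edgeR adjusted p = 0.136). DESeq2 kept it (adjusted p = 0.00191).

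Nfu_g_1_001328 stood at 16.5, 23.9, 22.7, 24.99 and 28.2 CPM at 27 weeks and at 30.5, 44.4, 32.4, 41.0 and 102 CPM at 9 weeks, all at 1%. Every 27-week library lay below every 9-week library at 1%, and all of these above the 8.61 to 15.9 CPM at 10% and 7.65 to 10.4 CPM at 0.1%. The ages differed by -1.10 on the log2 scale with an SE of 0.28 (adjusted p = 0.0473 by edgeR), and by -0.66 without replicate 5 at 9 weeks (adjusted p = 0.0779 by edgeR). The call was kept without replicate 1 or 3 at 9 weeks and 1% or replicate 4 at 0.1% and ended without any other single library (edgeR adjusted p 0.0501 to 0.105). It also ended with limma voom (adjusted p = 0.068) and, by edgeR, with no filter on low counts (0.0557), only both age groups (0.149) or the 15 libraries of the larger table (0.058), whereas DESeq2 kept it (adjusted p = 0.00545).

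One more member, of 7867 bases, was called, at 34.0, 52.4, 49.3, 45.2 and 60.8 CPM in the 27-week group and 54.4, 133, 74.4, 159 and 97.8 CPM in the 9-week group, both at 1%. Its mean was 22.7 ± 4.3 CPM at 10% and 24.31 ± 7.17 CPM at 0.1% (SD over 5 libraries). Of this gene the ages differed by -1.10 on the log2 scale with an SE of 0.26 (adjusted p = 0.0445 by edgeR), and replicate 1 at 9 weeks lay among the 27-week libraries. It kept its call without replicate 1 or 3 at 9 weeks and 1% or replicate 1 or 4 at 0.1%, and lost it without each other library (edgeR adjusted p 0.0504 to 0.1). It also lost it with limma voom (adjusted p = 0.065) and, by edgeR, with no filter on low counts (0.0541) or only both age groups (0.125), while DESeq2 kept it (adjusted p = 0.00419). Neither gene named for its level per length passed: 27 over 9 weeks was -0.54 for Nfu_g_1_008461 with an SE of 0.34 (adjusted p = 0.343 by edgeR) and 0.15 for Nfu_g_1_006417 with an SE of 0.39 (adjusted p = 0.851 by edgeR).

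The most frequent order of the group means with TMM factors held in 151 of the 289 genes. Their mean log2 level was highest at 9 weeks and 1%, then 27 weeks and 1%, then 0.1%, then 10%. Another 77 had the 1% groups in the same order but 10% above 0.1%. The 27-week mean was the highest in 41 genes with 0.1% above 10% and in 20 with 10% above 0.1%. No other order is possible under the rule. The order of the ages moved with the scaling: 228 members were lower at 27 weeks with TMM factors and 173 with library totals. As plain differences of mean log2 CPM with TMM factors, 52.1% of all genes tested were higher at 27 weeks. By that measure 10% lay above 0.1% in 33.6% of members and 52.2% of all genes, and the rule caps both groups. The fitted log2 changes of edgeR differed in sign for some genes. By those, 52.7% of all genes were lower at 27 weeks and 53.7% lower at 10%.

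Libraries of 1 group differed in the set as a whole. In replicate 5 at 10%, 261 of the 289 genes lay above the mean of their own group, whereas 50.5% of all genes tested did; the mean deviation was 0.34 on the log2 scale over the members and 0.01 over all genes. In replicate 4 at 9 weeks and 1%, 255 genes lay above the group mean, and in replicate 3 of that group only 12. With library totals in place of TMM factors these counts were 267, 277 and 63, while 58.2%, 59.3% and 66.8% of all genes lay above the mean in the same libraries. Totals move all genes of a library alike: in replicate 5 at 9 weeks and 1%, 74.4% of members and 52.1% of all genes lay above the group mean with TMM factors, and 33.9% and 30.5% with totals. At 0.1%, replicate 2 had 61.6% of members and 47.9% of all genes above the mean with TMM factors, and 24.9% and 21.1% with totals. Replicate 4 at 0.1% had 63.7% and 46.6% with TMM factors, and 93.8% and 77.4% with totals. At 27 weeks, replicate 1 had 65 and the other replicates between 105 and 195.

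**Figure D5:**
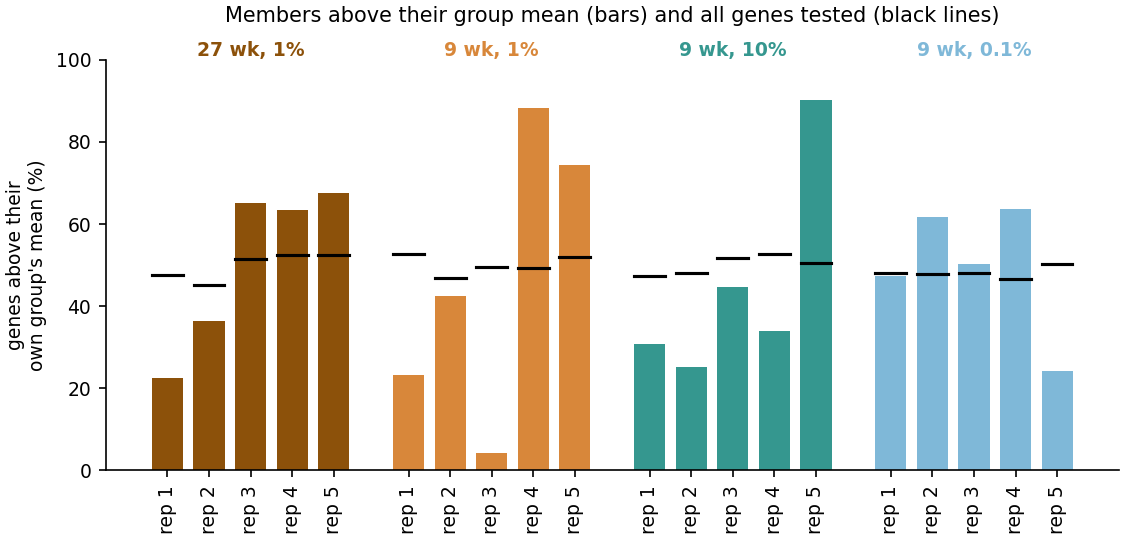
Bars show the percent of the 289 members that lay above the mean of their own group in each library, and black lines the same for all 16516 genes tested, with TMM scaling. Bars range from 4.15% in replicate 3 at 9 weeks and 1% to 90.3% in replicate 5 at 10%, while the lines stay between 45.05% and 52.8%.

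The spread between replicates was largest at 9 weeks and 1% for 202 of the 289 genes. The median SD of a member's log2 level was 0.21 in the 27-week 1% group, 0.48 in the 9-week 1% group, 0.29 at 10% and 0.30 at 0.1%. Over all genes tested the medians were 0.26, 0.51, 0.26 and 0.37 in the same groups, so the 9-week 1% group had the largest there too. How many of all genes had their largest SD in that group was not counted. The rule dropped genes with a low library at 1% or a high library at the other doses. The spread of members is therefore limited by the rule and not directly comparable with that of all genes. Without replicate 5 at 9 weeks and 1%, the median SD in that group was 0.42 over the members and 0.33 over all genes. Without replicate 3 the values were 0.44 and 0.54.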

How the data were processed

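Per the labels' protocols, the 20 liver libraries were made with Illumina's TruSeq kit. Raw counts for each gene were deposited by the authors in a table of 15 libraries and another of 5. The tools named in the submitters' processing notes are featureCounts 1.4.6-p4, STAR 2.4.1d and CASAVA 1.8.2. Whether counting used strand, with which build, annotation and settings, is not given in the sources used here, so counts of overlapping, antisense or near-identical genes are uncertain. Another 10 columns belong to no listed sample and were not used. The authors also deposited values labelled RPKM, treated as a score because their divisors repeat every 35 rows; they served only to recover gene lengths, from scores of 0.1 or more. The 20 library totals equalled recovered divisors to within a relative difference of 2.05e-06.

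Replicate numbers follow the accessions and only name libraries; no label gives a pairing or a batch. All 190 pairs of libraries differed by a chi-square per degree of freedom of at least 50.6, so none repeated another. Genes were tested in R 4.3.3 with edgeR 4.0.16 (filterByExpr by group, TMM, quasi-likelihood F-test, two-sided, all 20 libraries in 1 fit, Benjamini-Hochberg adjustment over 16516 genes), after a trial on simulated counts. SE is the absolute log2 change divided by the square root of F. DESeq2 1.42.0, limma 3.58.1 voom, other scalings, filters, fits and left-out libraries were alternatives. The members, lists and rules were chosen with earlier results of these data known. Named genes were the 2 members with the highest level per length at 1% and the 2 with the largest called fall between the ages. By edgeR, no member called between the ages rose, and none was called between 10% and 0.1%.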

Additional observations from a re-analysis of the deposited data

Results flagged for a closer look

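Of 28 sets of 5 replicate values examined, 5 held a library far from the others by Dixon's ratio. For independent normal values chance flags about 1 in 20, but these sets share libraries and include genes chosen from these data. The number flagged can therefore not be compared with that rate. The members held 2.15% of counts in replicate 4 at 9 weeks and 1%, and the next library held 1.44%. At 0.1%, replicate 4 held 0.661% and the next 0.442%. At 10%, the median log2 level of the members was 3.12 in replicate 5 and 2.72 in the next. Nfu_g_1_001328 stood at 102 CPM in replicate 5 at 9 weeks and 1%, with 44.4 CPM in the next library, and at 15.9 CPM in replicate 5 at 10%, with 10.1 CPM in the next.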

How the results depend on the processing

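The number of members was 289 and stayed within 1.5 times that number under every alternative to the rule that was run: 280 with RLE size factors (279 shared), 242 with library totals (199 shared), 311 and 218 with pseudocounts of 0.1 and 2 CPM, 289 with no minimum level, 205 with a minimum of 10 CPM, 292 with no age limit and 273 to 356 with 1 library left out (at least 258 shared). With TMM factors from all genes with a count, an alternative chosen after seeing the data, it was 296. The number of members called between 10% and 0.1% was 0 with edgeR, 2 with DESeq2 (8 and 139 over all genes) and 0 to 1 with 1 library left out, reaching 1 when replicate 2 at 0.1% was dropped (37 over all genes). Between 27 and 9 weeks it was 3 with edgeR, 26 with DESeq2 (all lower at 27 weeks), 0 with limma voom, 1 with no filter on low counts, 0 with only both groups fitted and 4 with the 15 libraries of the larger table. Over all genes the same fits called 342, 1468, 128, 135, 25 and 461. Leaving out 1 library gave 0 to 16, namely 16 when replicate 3 and 7 when replicate 1 of the 9-week 1% group was dropped, 5 when replicate 4 and 3 when replicate 1 at 0.1% was, and 0 or 1 for any other library. Over all genes the calls in the first 4 of these were 532, 280, 503 and 321, and 25 to 277 in the rest. The cause was not tested. No paired analysis was possible because no label pairs libraries across groups.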
